A study of Mus musculus with 24 samples.

Results

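The endothelium of the liver secretes paracrine signals, here called hepatic angiocrine factors, and 7 genes that encode them were followed through all libraries of the series: Wnt2, Wnt9b, Rspo1, Rspo3, Hgf, Bmp2 and Bmp6. They form a given list of ligands, set by name and not by a threshold on a measured value, and they are 7 of the 22282 genes that the files resolve. Each is represented by 1 RefSeq transcript. All 7 reached the mean level of 1 FPKM (fragments per kilobase of transcript and sequencing depth, upper-quartile normalized by the authors) that was required for testing, a filter passed by 14964 genes.

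Wnt2 and Wnt9b are Wnt ligands that liver endothelial cells around the central vein release to hepatocytes, in which they act through Frizzled receptors, Lrp5, Lrp6 and beta-catenin. Rspo1 and Rspo3 are R-spondins, which bind Lgr receptors and raise the response to Wnt by drawing the ubiquitin ligases Znrf3 and Rnf43 away from Frizzled. Hgf, hepatocyte growth factor, signals through the receptor tyrosine kinase Met and is a mitogen for hepatocytes. Bmp2 and Bmp6 are bone morphogenetic proteins that liver sinusoidal endothelial cells supply to hepatocytes, where they maintain the transcription of the iron hormone hepcidin.

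The series holds 24 polyadenylated RNA libraries from C57BL/6J mouse cells in 8 groups of 3. LSECs, adult liver endothelial cells, were sorted directly from the organ after intravital labelling with an antibody to VE-cadherin and with isolectin, and were never cultured. Akt-liver ECs and Akt-LECs came from liver and adult lung, respectively (the age of the mice behind Akt-liver ECs is not given in the sources used here), were pulled out with CD31 beads, infected with a lentivirus for constitutively active myristoylated Akt (myrAkt), grown and sorted again for VE-cadherin and CD31. MACs were cultured amniotic fluid cells of mid-gestation embryos (E11.5-E13.5), pooled by litter, and Akt-MACs were MACs with myrAkt. RACVECs were MACs converted with lentiviral Etv2, Erg and Fli1 under TGF-beta inhibition, and Akt-RACVECs and Sox17-RACVECs received myrAkt or Sox17 in addition. The 5 conversion and amniotic groups, Akt-liver ECs and Akt-LECs thus all lived in culture, so that in any comparison with LSECs culture, viral infection (of all but the MACs) and the way of purification cannot be told apart. For all of these groups but Akt-liver ECs, the tissue of origin differs from that of LSECs as well. The study describes its libraries as individual isolates and a MAC replicate as a separately isolated culture, but the sources do not tie each library to an animal, so the p-values measure the spread between these isolates.

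Summed FPKM ran from 1689486 to 2317294 and the genes above 0 from 12356 to 14985 per library. The number of reads is unknown, so no counting error can be attached to a level and an FPKM of 0 is written as listed at 0. The 6 endothelial markers summed to 4653 FPKM or more in each LSEC, Akt-liver EC, Akt-LEC and Akt-RACVEC library and to 51.6 FPKM at most in the MACs and Akt-MACs. RACVECs lay between, at 1266 to 2529 FPKM. Sox17-RACVECs measured 3614, 12739 and 3666 FPKM in replicate order. The 8 sinusoidal markers summed to between 47394 and 58562 FPKM in LSECs against 4016 to 11241 in Akt-liver ECs, and the C-type lectin Clec4g, at 21133 FPKM or more in each LSEC library, did not pass 6.53 FPKM in any other library. Of the transduced factors, Etv2 measured 301 to 860 FPKM in RACVECs and 127 to 572 FPKM in Akt-RACVECs, and Sox17 measured 5.09, 40.1 and 200.1 FPKM in Sox17-RACVECs against 0 in RACVECs, whereas Erg did not pass 13.8 FPKM in RACVECs. Etv2 was listed at 0 in the library labelled Sox17-RACVEC 2 and measured 458 and 378 FPKM in the other Sox17-RACVEC libraries. The same library held 387 FPKM of Erg against 4.49 and 0 there, which goes against its label, and values without it are given where it bears on a result.

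The positions of the 7 genes, in mm9, the build of the files, are taken from the GENCODE M1 annotation. Wnt2 lies at chr6:17938940-17980585 and Wnt9b at chr11:103588678-103611135, both on the minus strand. Rspo1 lies at chr4:124663674-124686343 on the plus strand and Rspo3 at chr10:29172915-29255673 on the minus strand. Hgf occupies chr5:16059368-16125257, Bmp2 chr2:133377895-133388621 and Bmp6 chr13:38436995-38592183, all on the plus strand. The 5′ part of Rspo1 overlaps Gm12930 and the last bases of Bmp6 overlap Txndc5, each on the opposite strand, and since strand-specific counting is not stated, reads in these overlaps could belong to either gene.

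The promoters of 3 members are shown because they stand for the 3 patterns of level described below. Wnt2 was high in LSECs alone. Bmp6 was highest in LSECs, with the next group means in Akt-liver ECs and then Akt-LECs, whose libraries overlapped. Wnt9b was highest in single cultured libraries. The sequences run 5′ to 3′ on the gene's strand over 250 bases before and 50 bases after the transcription start, from RefSeq on build GRCm38.p6. Capitals mark the letters GATAA on either strand (TTATC on the other), the core that GATA factors bind, searched because the sinusoidal factor Gata4 measured 426, 531 and 543 FPKM in LSECs and at most 16 FPKM in any RACVEC, Akt-RACVEC or Sox17-RACVEC library.
Wnt2, chr6:18030396-18030695, minus strand: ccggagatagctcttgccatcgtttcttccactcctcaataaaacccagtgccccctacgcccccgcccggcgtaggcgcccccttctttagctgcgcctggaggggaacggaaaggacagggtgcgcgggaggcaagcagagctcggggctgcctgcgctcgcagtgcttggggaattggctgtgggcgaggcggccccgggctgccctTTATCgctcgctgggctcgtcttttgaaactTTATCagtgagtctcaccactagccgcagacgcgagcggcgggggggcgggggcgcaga
Bmp6, chr13:38345466-38345765, plus strand: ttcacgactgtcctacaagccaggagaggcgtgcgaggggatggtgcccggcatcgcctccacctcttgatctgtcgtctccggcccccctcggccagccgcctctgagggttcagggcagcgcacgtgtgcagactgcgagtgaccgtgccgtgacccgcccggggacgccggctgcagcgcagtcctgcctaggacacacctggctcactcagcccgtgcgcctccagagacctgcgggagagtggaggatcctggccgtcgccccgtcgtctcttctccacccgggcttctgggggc
Wnt9b, chr11:103749772-103750071, minus strand: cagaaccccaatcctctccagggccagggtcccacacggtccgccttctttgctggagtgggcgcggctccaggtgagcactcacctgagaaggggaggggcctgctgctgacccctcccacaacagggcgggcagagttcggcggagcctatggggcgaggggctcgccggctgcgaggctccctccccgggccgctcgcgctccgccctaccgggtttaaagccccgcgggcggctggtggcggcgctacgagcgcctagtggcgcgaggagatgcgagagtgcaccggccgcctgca
The Wnt2 promoter holds 2 matches and those of Bmp6, Wnt9b, Rspo1 and Hgf (2 start sites) hold 0, while 25.4% of the 32851 promoters of this length have at least 1. CGGAA, the core of Ets factors, occurs once in the Wnt2 window and in none of the others, against 29.9% of all promoters, and ACAAT, a core of Sox factors, in none, against 31.0%. No 2 of these matches overlap. Bmp2 and Rspo3 had no entry. The matches describe letters and say nothing of binding.

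**Figure D1:**
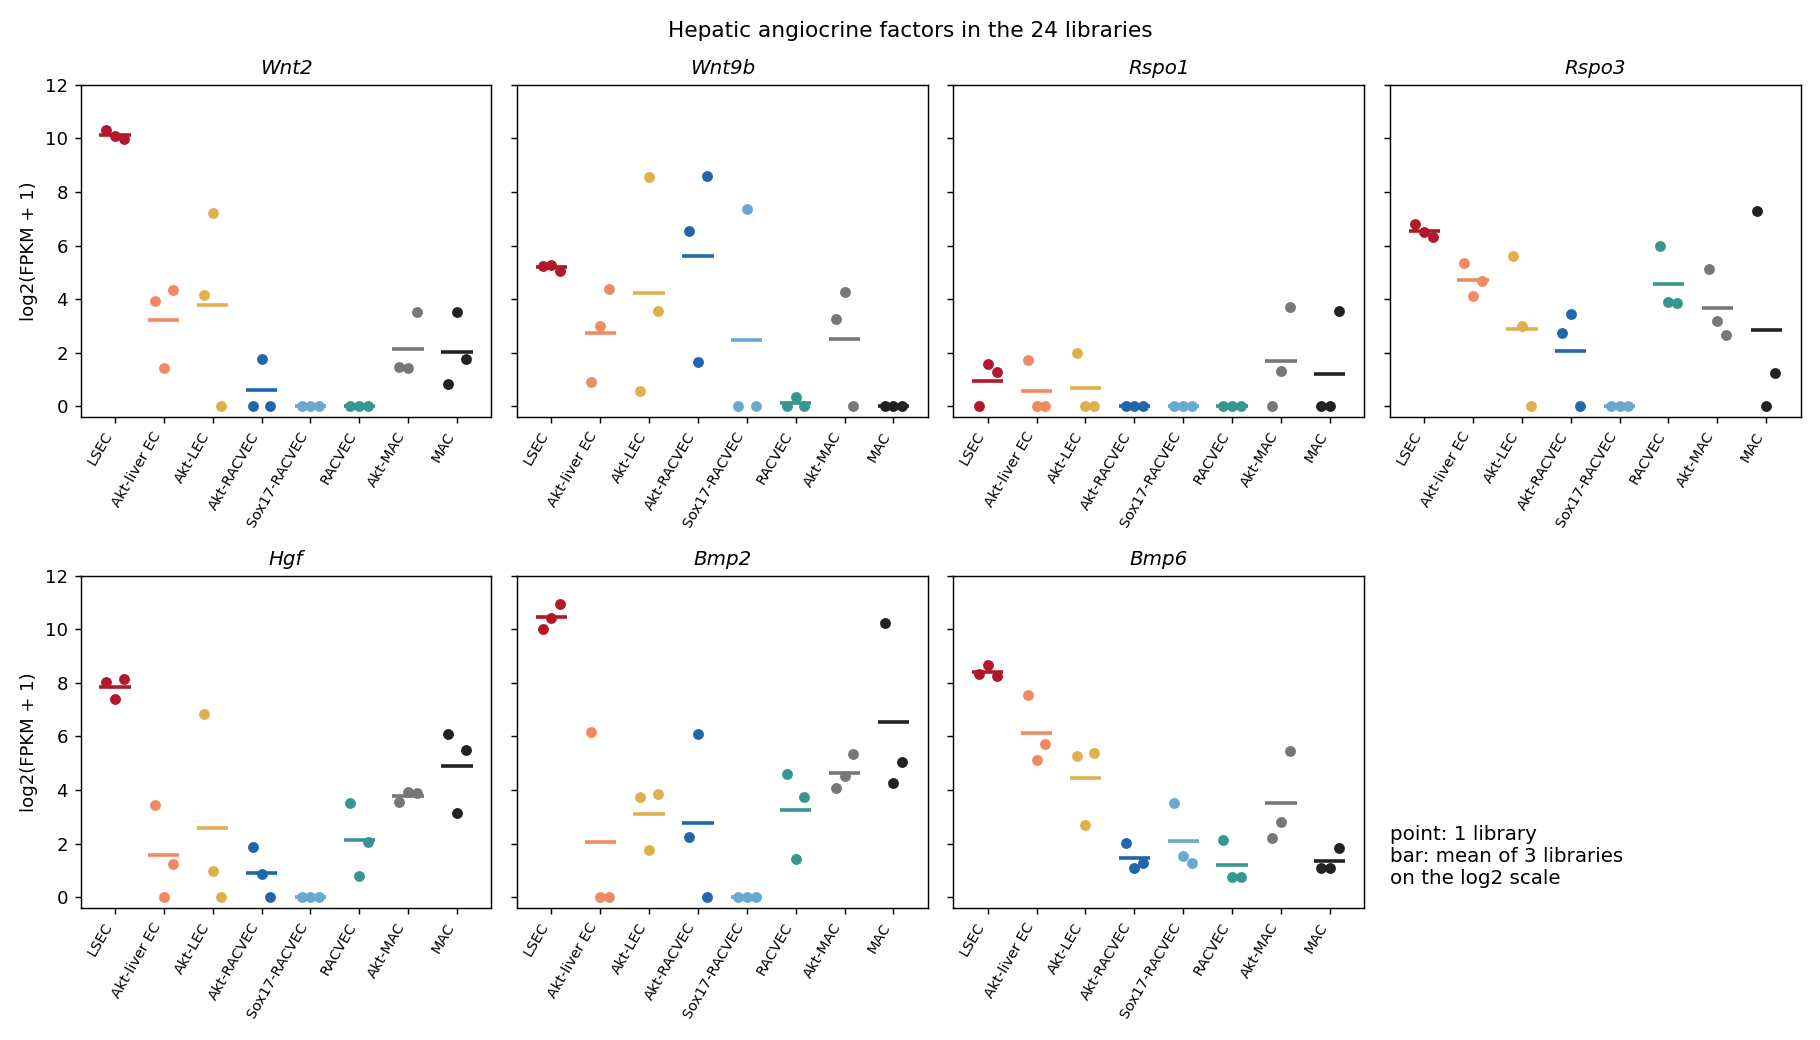
FPKM of the 7 hepatic angiocrine factors on the log2(FPKM + 1) scale (y axis) in each of the 24 libraries, by group (x axis), with points for libraries (left to right, replicates 1, 2 and 3) and bars for the mean of 3. Every LSEC library lies above every other library for Wnt2, Hgf and Bmp6, a single MAC library reaches the LSEC range of Bmp2, and Wnt9b exceeds all LSEC libraries in 4 cultured libraries.

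The first question was whether liver endothelial cells that had been cultured with myrAkt still carried the angiocrine transcripts of freshly purified LSECs. Of the 7 factors, 4 were lower in Akt-liver ECs (Wnt2, Hgf, Bmp2 and Bmp6) and 0 were higher. Over all genes tested 12.9% were called lower, where a call is a limma adjusted p below 0.05 with a log2 fold change past 1 on the log2(FPKM + 1) scale. The median log2 fold change of the 7 was -2.44, that of all genes 0.08.

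Wnt2 showed the widest separation of the Wnt ligands. It measured 1261, 1096 and 1019.6 FPKM in LSECs and 14.3, 1.68 and 19.4 FPKM in Akt-liver ECs. The LSEC libraries lay close together and far above the cultured ones. The log2 fold change was -6.90 (SE 1.22, adjusted p = 0.000285).

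Wnt9b, the other Wnt ligand, measured 36.8, 37.9 and 32.5 FPKM in LSECs and 0.87, 6.99 and 19.6 FPKM in Akt-liver ECs. The groups did not overlap, yet the difference, -2.44 (95% interval -6.65 to 1.77, adjusted p = 0.38), did not pass in the model of all 8 groups. That model pools the spread of all groups, so the SE of Wnt9b was 2.01 in every comparison of a group with LSECs. Per kilobase, Wnt9b stood far below Wnt2 in LSECs, at a mean of 35.7 ± 2.8 FPKM against 1125 ± 123 FPKM (SD, n = 3).

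Among the R-spondins, Rspo3 measured 109.8, 89.6 and 79.1 FPKM in LSECs and 39.6, 16.2 and 24.5 FPKM in Akt-liver ECs. The groups did not overlap, and the log2 fold change of -1.83 (95% interval -4.94 to 1.28, adjusted p = 0.37) did not pass in the model of all 8 groups. In a model of these 6 libraries alone it did, with adjusted p = 0.00716. Rspo1 was near the floor throughout, with 0, 2.00 and 1.40 FPKM in LSECs and 2.31, 0 and 0 FPKM in Akt-liver ECs, and the groups overlapped.

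Hgf measured 262, 167 and 284 FPKM in LSECs and 9.85, 0 and 1.35 FPKM in Akt-liver ECs. Every LSEC library was above every Akt-liver EC library, and the log2 fold change was -6.30 (SE 1.28, adjusted p = 0.000968).

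The Bmp ligands differed from each other in how far Akt-liver ECs lay below LSECs. Bmp2 measured 1036, 1373 and 1950.2 FPKM in LSECs but 71.6 FPKM in Akt-liver EC 1 and 0 in the other Akt-liver EC libraries, a log2 fold change of -8.40 (SE 1.65, adjusted p = 0.000748). Bmp6 measured 319, 405 and 308 FPKM in LSECs and 184, 34.1 and 51.6 FPKM in Akt-liver ECs. It was thus present in every Akt-liver EC library, all below the lowest LSEC library, with a log2 fold change of -2.29 (SE 0.85, adjusted p = 0.0431). The Bmp6 call was lost when any of 5 of the 6 libraries was left out, namely Akt-liver EC 2 or 3 or any LSEC library (adjusted p from 0.0846 to 0.162), and held without Akt-liver EC 1 (0.0175).

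Besides the sinusoidal markers given above, markers of other cells also differed between LSECs and Akt-liver ECs, although the stellate sums overlapped. In LSECs 6 of 6 hepatocyte markers were above 0, summing to between 2031 and 11760 FPKM, as were 5 of 5 measured macrophage markers (9009 to 14902 FPKM), 3 of 3 measured red blood cell markers (10275 to 10897 FPKM) and 6 of 6 hepatic stellate markers (83.8 to 95 FPKM). Lrat, which defines stellate cells, a known source of Hgf, measured 59.0, 53.8 and 52.7 FPKM there and was listed at 0 in all Akt-liver ECs. Of the 6 stellate markers, Lrat was the only 1 called lower in Akt-liver ECs, and 0 were called higher. In Akt-liver ECs the hepatocyte sum was 55.9 FPKM at most, with Cyp2e1 listed at 0, the macrophage sum ran from 0 to 956 FPKM and the stellate sum from 11.3 to 365 FPKM. Their part in the results was not tested, and in bulk RNA fewer cells of a type cannot be told from less RNA per cell. Akt-liver EC 1, which held the most Hgf, Bmp2 and Bmp6 of its group, also held 6 of 6 fibroblast markers at a sum of 1397 FPKM, against 111 and 393 FPKM in the others, and Col1a1 at 556 FPKM against 5.66 and 1.14 FPKM. Without it and Akt-LEC 1, its counterpart below, the same 4 members were called lower in Akt-liver ECs, with log2 fold changes of -7.25 for Wnt2, -7.24 for Hgf and -2.99 for Bmp6, and with Bmp2 listed at 0 in both remaining libraries.

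Akt-LECs, the lung counterpart, were compared with LSECs next. The series holds no freshly purified lung endothelium, so here organ cannot be told apart from culture, viral infection and purification. Against LSECs, 4 members were lower (Wnt2, Hgf, Bmp2 and Bmp6) and 0 higher, beside 12.8% of all genes called lower. The median of the 7 was -3.97 and that of all genes 0.05. This comparison shares its LSEC libraries with the one before, so that the 2 sets of values are not independent.

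The Wnt ligands of Akt-LECs were concentrated in a single library. Wnt2 measured 17.0, 149 and 0 FPKM and Wnt9b 0.48, 380.4 and 10.7 FPKM, in both cases with Akt-LEC 2 far above the others. Wnt2 remained below every LSEC library (log2 fold change -6.33, SE 1.22, adjusted p = 0.000614), whereas Wnt9b in Akt-LEC 2 exceeded every LSEC library and its group difference was -0.96 (95% interval -5.17 to 3.24, adjusted p = 0.76). The Wnt9b difference was -3.14 without Akt-LEC 2 and 0.87 without Akt-LEC 1, and it was not called in either setting.

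Rspo3 measured 48.0, 6.96 and 0 FPKM in Akt-LECs, below every LSEC library, with a log2 fold change of -3.67 (95% interval -6.78 to -0.56, adjusted p = 0.0666). Without Akt-LEC 1 it reached -5.04 and passed (adjusted p = 0.0224). Rspo1 measured 3.00 FPKM in Akt-LEC 1 and was listed at 0 in the other Akt-LEC libraries.

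Hgf measured 112, 0.94 and 0 FPKM in Akt-LECs, a log2 fold change against LSECs of -5.27 (SE 1.28, adjusted p = 0.00399). In a model of these 6 libraries alone the difference did not pass (adjusted p = 0.0563). Akt-LEC 1 held nearly all of it, and this library also stood apart with 6 of 6 fibroblast markers at 2706 FPKM in sum, against 21.9 and 27.2 FPKM, a macrophage sum of 1404 FPKM against 0.75 and 18.6 FPKM, and Des, a muscle and stellate filament, at 421 FPKM against 0 and 0 FPKM. Their part in the result was not tested. Without this library and Akt-liver EC 1, Hgf was lower than in LSECs by a log2 fold change of -7.38 in Akt-LECs.

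Bmp2 measured 12.3, 2.40 and 13.3 FPKM in Akt-LECs, where all libraries were above 0 and far below LSECs (log2 fold change -7.35, SE 1.65, adjusted p = 0.00223). Bmp6 measured 37.1, 5.45 and 41.1 FPKM, a log2 fold change of -3.97 (SE 0.85, adjusted p = 0.00148). Neither group of Akt-LEC values overlapped with LSECs.

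Set against each other, cultured liver and lung endothelium did not differ in any of the 7 factors by the test: 0 members were called at an adjusted p of 1.0 each and 0 at an unadjusted p below 0.05, beside 0.0134% of all genes called (2 genes; 417 at an unadjusted p below 0.05 with the same fold). The intervals were wide. Bmp6 came nearest, with a log2 difference of 1.68 (95% interval -0.10 to 3.46) and Akt-liver EC libraries of 184, 34.1 and 51.6 FPKM overlapping with Akt-LEC libraries of 37.1, 5.45 and 41.1 FPKM. For Wnt2 the difference was -0.56 (95% interval -3.12 to 1.99), for Rspo3 1.84 (95% interval -1.27 to 4.95) and for Hgf -1.04 (95% interval -3.71 to 1.64). The missing calls therefore do not show that both endothelia carry the same amounts.

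**Figure D2:**
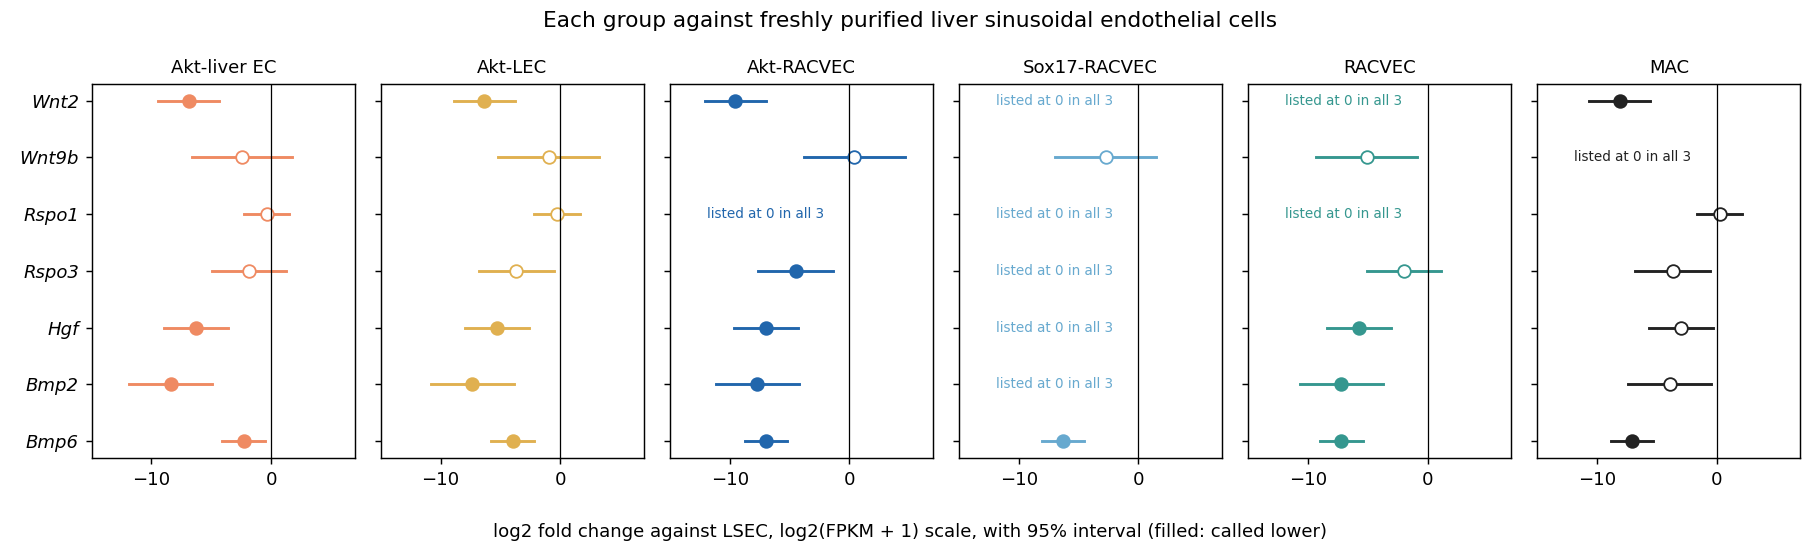
Log2 fold change of each member against LSECs on the log2(FPKM + 1) scale (x axis) in 6 comparisons that share the 3 LSEC libraries, with 95% intervals of the limma model and filled points for members called lower. Bmp6 in Akt-liver ECs, at -2.29, is the smallest called change, and members listed at 0 in all 3 libraries have no point.

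The converted cells were then compared with LSECs, which asks whether conversion brings on the liver factors. In RACVECs 4 members were called lower (Wnt2, Hgf, Bmp2 and Bmp6), beside 15.2% of all genes, in Akt-RACVECs 5 (the same and Rspo3), beside 14.1%, and in Sox17-RACVECs 5 (again with Rspo3), beside 15.5%. In MACs 3 were called lower (Wnt2, Wnt9b and Bmp6), beside 16% of all genes. No member was called higher than in LSECs in any of these groups. The 4 comparisons use the same LSEC libraries.

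Wnt2 was listed at 0 in every RACVEC and Sox17-RACVEC library, and in Akt-RACVECs it measured 0, 2.43 and 0 FPKM. The parental MACs held 0.80, 10.4 and 2.39 FPKM and the Akt-MACs 1.79, 1.67 and 10.6 FPKM. All converted and amniotic libraries thus lay far below the lowest LSEC library, and MACs were lower than LSECs by a log2 fold change of -8.09 (SE 1.22, adjusted p = 4.09e-05).

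Wnt9b followed another course. It was listed at 0 in all MACs and in RACVEC 1 and 3, with 0.28 FPKM in RACVEC 2. RACVECs and LSECs did not overlap, at a log2 fold change of -5.08 (95% interval -9.29 to -0.87) whose adjusted p of 0.0541 just missed the threshold and fell to 2.66e-05 in a model of these 6 libraries alone. In Akt-RACVECs it measured 93.3, 2.11 and 384 FPKM, in Sox17-RACVECs 0, 165 and 0 FPKM and in Akt-MACs 8.58, 18.3 and 0 FPKM. Akt-RACVEC 1 and 3 and the library labelled Sox17-RACVEC 2 therefore exceeded the LSEC range, and Akt-RACVEC 2 did not. The adjusted p of MACs against LSECs was 0.047, and it rose above 0.05 when any of the 6 libraries was left out (0.0869 to 0.101). Without the library labelled Sox17-RACVEC 2, Wnt9b was listed at 0 in both remaining Sox17-RACVEC libraries and was called lower than in LSECs (adjusted p = 0.0392), which raised the calls of that comparison from 5 to 6.

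The gene next to Wnt9b varied in a similar way. Gosr2, which encodes a Golgi vesicle fusion protein, lies on the same strand of chromosome 11, with its nearer end 29466 bases from the annotated 3′ end of Wnt9b. It measured 531, 362 and 735 FPKM in Akt-RACVECs, 196, 726 and 227 FPKM in Sox17-RACVECs, 188, 384 and 311 FPKM in Akt-LECs and 526, 448 and 420.2 FPKM in LSECs. In MACs, where Wnt9b was listed at 0, it measured 205, 190 and 217 FPKM, and in RACVECs 196, 182 and 257 FPKM. Within Akt-LECs, Akt-RACVECs and Akt-MACs, the library highest in Wnt9b was also the highest in Gosr2. In LSECs, Akt-liver ECs and RACVECs the highest libraries differed. Within Sox17-RACVECs the match rested on the library labelled Sox17-RACVEC 2, since Wnt9b was listed at 0 in the others. Over the 24 libraries, with that library included, the Pearson correlation of the log2 values was 0.87. No correlation was computed without it. Gosr2 lies downstream of Wnt9b, and the annotated genes do not overlap. What the similar variation of Wnt9b and Gosr2 rests on was not tested.

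**Figure D3:**
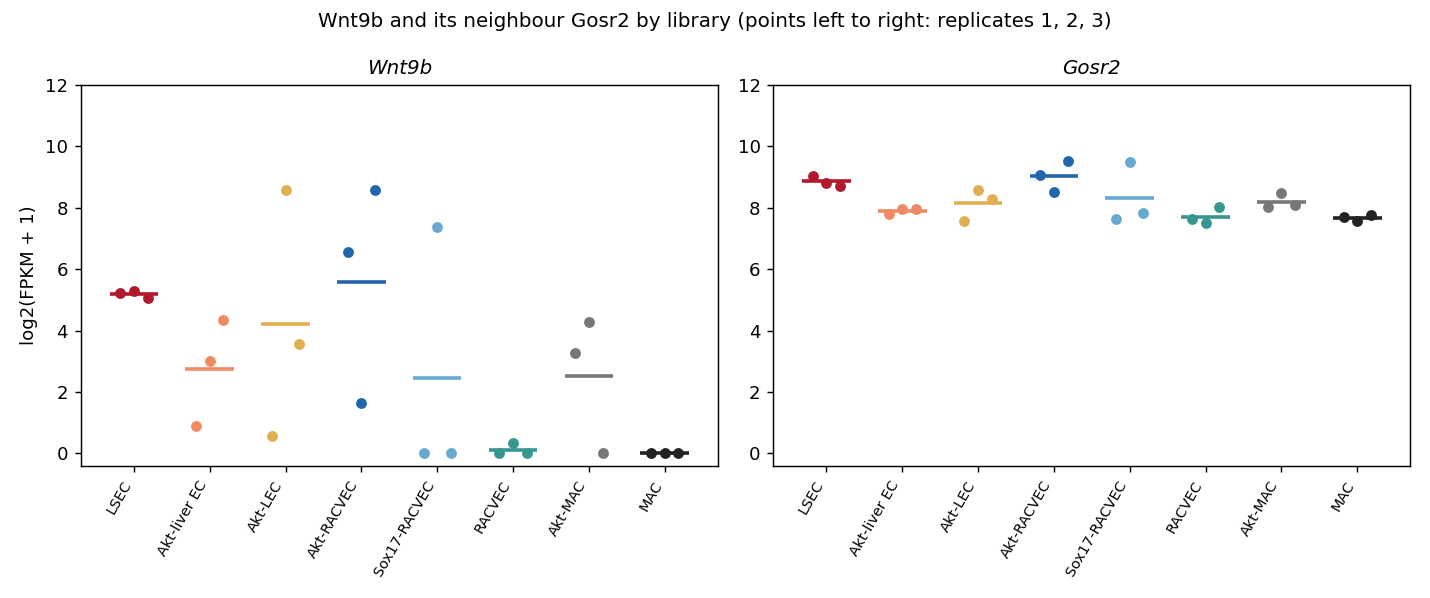
Wnt9b (left) and Gosr2 (right) on the log2(FPKM + 1) scale (y axis) in each library by group (x axis), with points in replicate order and bars for the mean of 3. The libraries with the most Wnt9b, Akt-RACVEC 3 (384 FPKM) and Akt-LEC 2 (380.4 FPKM), are also the highest of their groups in Gosr2, at 735 and 384 FPKM.

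Rspo3 was above 0 in every RACVEC library, unlike the Wnt ligands. It measured 156, 0 and 1.38 FPKM in MACs, 34.1, 8.10 and 5.27 FPKM in Akt-MACs and 61.7, 14 and 13.4 FPKM in RACVECs. In Akt-RACVECs it measured 5.64, 9.78 and 0 FPKM and in Sox17-RACVECs it was listed at 0 throughout. Both of these groups were called lower than LSECs (Akt-RACVECs -4.48, SE 1.48, adjusted p = 0.0251; Sox17-RACVECs adjusted p = 0.00206), and the Akt-RACVEC call was lost without Akt-RACVEC 3 or any LSEC library (0.0564 to 0.109). MAC 1 alone exceeded the LSEC range, and without it the MACs were called lower too, at -5.91 (adjusted p = 0.00131) against -3.69 (0.0553) with it.

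Rspo1 was listed at 0 in all RACVEC, Akt-RACVEC and Sox17-RACVEC libraries and in 17 of the 24 libraries altogether. Its highest values were 12 FPKM in Akt-MAC 3 and 10.9 FPKM in MAC 3, and no other library passed 3.00 FPKM.

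Hgf was highest after LSECs in the MACs, at 66.5, 7.75 and 44.6 FPKM. It measured 10.8, 14.1 and 13.9 FPKM in Akt-MACs, 10.5, 0.74 and 3.21 FPKM in RACVECs and 2.67, 0.82 and 0 FPKM in Akt-RACVECs, and was listed at 0 in Sox17-RACVECs. MACs and LSECs did not overlap, with a log2 fold change of -2.96 (95% interval -5.63 to -0.28, adjusted p = 0.0735), and in a model of these 6 libraries alone the difference passed (adjusted p = 0.0218). The called changes against LSECs were -5.73 in RACVECs (SE 1.28, adjusted p = 0.00184) and -6.95 in Akt-RACVECs (SE 1.28, adjusted p = 0.00037). The 6 fibroblast markers, all above 0 in each of these groups, summed to 1984 to 6162 FPKM in MACs, 1002 to 4068 FPKM in Akt-MACs, 2315 to 4915 FPKM in RACVECs and 0.31 to 115 FPKM in Akt-RACVECs, and their part in the levels of Hgf was not tested.

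Bmp2 in MACs rested on a single library, with 1218 FPKM in MAC 1 against 18.2 and 32 FPKM in the others, so that MAC 1 fell within the LSEC range. The difference from LSECs was -3.94 (95% interval -7.40 to -0.48, adjusted p = 0.0656), and without MAC 1 it was -5.80 and was called (adjusted p = 0.0105). Bmp2 measured 15.7, 21.9 and 40.0 FPKM in Akt-MACs, 22.9, 1.7 and 12.4 FPKM in RACVECs and 3.70, 67 and 0 FPKM in Akt-RACVECs, and was listed at 0 in Sox17-RACVECs. RACVECs were called lower than LSECs by -7.21 (SE 1.65, adjusted p = 0.00227).

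Bmp6 was the only member above 0 in all 24 libraries. It measured 1.10, 1.14 and 2.55 FPKM in MACs, 3.39, 0.68 and 0.68 FPKM in RACVECs, 3.05, 1.13 and 1.42 FPKM in Akt-RACVECs and 10.5, 1.92 and 1.39 FPKM in Sox17-RACVECs. All of these lay far below LSECs, with log2 fold changes of -7.09 in MACs, -7.21 in RACVECs, -6.96 in Akt-RACVECs and -6.31 in Sox17-RACVECs (SE 0.85 each, adjusted p from 2.65e-06 to 1.31e-05).

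Across all groups, every LSEC library was above every other library for 3 of the 7 members (Wnt2, Hgf and Bmp6), as it was for 9.64% of all genes tested. LSECs ranked first in group mean for 5 members, with Wnt9b and Rspo1 as the exceptions. Sox17-RACVECs ranked above LSECs for Wnt9b only through the library labelled Sox17-RACVEC 2, as Wnt9b was listed at 0 in the others. For Wnt2 and Hgf the gap to the next group was free of overlap, and so it was for Bmp6, whereas Rspo3 and Bmp2 of LSECs overlapped with MACs through MAC 1. Below LSECs, neighbouring groups in the order overlapped for every member, except that Wnt9b of LSECs, the group with rank 4, lay clear of Akt-liver ECs, Hgf of Akt-MACs lay clear of RACVECs and Bmp2 of Akt-LECs lay clear of Sox17-RACVECs, where it was listed at 0.

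The steps of the conversion were tested for their own effect on the factors. RACVECs against MACs gave 0 calls (2.71% of all genes called) with 1 member, Hgf, at an unadjusted p below 0.05. Akt-RACVECs against RACVECs gave 0 (0.261% of all genes), Sox17-RACVECs against RACVECs 0 (0.00668%) and Akt-MACs against MACs 0 (2.81%), again with 1 member each at an unadjusted p below 0.05: Wnt9b, Rspo3 and Bmp6, respectively. Of all 14964 genes, 1885 had such an unadjusted p with a log2 fold change past 1 for RACVECs against MACs. The counts were 1501 for Akt-RACVECs and 704 for Sox17-RACVECs against RACVECs, and 1455 for Akt-MACs against MACs. Hgf in RACVECs stood at -2.77 relative to MACs (SE 1.28, adjusted p = 0.24), with overlapping libraries. Wnt9b stood at 5.48 in Akt-RACVECs relative to RACVECs (SE 2.01, adjusted p = 0.19) without overlap of libraries. Bmp6 measured 3.67, 6.04 and 42.8 FPKM in Akt-MACs, all above the MACs, at a log2 fold change of 2.17 (SE 0.85, adjusted p = 0.22). Macrophage markers summed to 809, 8402 and 27556 FPKM in the same 3 Akt-MAC libraries, the order of their Bmp6 levels, against 14.7 FPKM at most in MACs. Of 5 measured macrophage markers 4 were called higher in Akt-MACs, with Clec4f listed at 0, and their part in the Bmp6 level was not tested. The effect of myrAkt on RACVECs differed from that on MACs in 0 members (0.1% of all genes called). At an unadjusted p below 0.05 there were 0 members too, beside 1516 of the 14964 genes with a log2 fold change past 1.

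The rest of each pathway was described with lists of ligands, receptors, antagonists and targets. Among Wnt ligands other than the members, 8 of 17 were high enough for testing, of which 2 were higher and 0 lower in Akt-liver ECs than in LSECs, with a median of 1.22. Over all genes tested 14.1% were called higher in Akt-liver ECs and 12.1% in Akt-LECs. Wnt5a, a ligand that mostly acts without beta-catenin, averaged 36.8 ± 18.2 FPKM in Akt-liver ECs and 0.24 ± 0.42 FPKM in LSECs (log2 fold change 4.87, SE 0.83, adjusted p = 0.000207). It was called higher in Akt-LECs as well, at 4.75 (SE 0.83, adjusted p = 0.000266). Wnt7b was listed at 0 in LSECs and was called higher in Akt-liver ECs (adjusted p = 0.0169), where it measured 40.6, 2.18 and 0.87 FPKM, highest in Akt-liver EC 1, the library with fibroblast and macrophage markers. Wnt2 and Wnt9b were left out of this list by its definition, so its calls do not bear on them.

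Of 12 Wnt receptors, 4 were higher and 0 lower in Akt-liver ECs, and 3 were higher and 1 lower in Akt-LECs. Fzd7 averaged 108 ± 95 FPKM in Akt-liver ECs against 5.42 ± 0.81 FPKM in LSECs (log2 fold change 3.73, SE 0.64, adjusted p = 0.000219). Fzd5 rose by 2.25 (SE 0.51, adjusted p = 0.00213), and Fzd10 was listed at 0 in LSECs and called higher (adjusted p = 0.00131). In Akt-LECs, Lrp6 was the receptor called lower, at -1.05 (SE 0.31, adjusted p = 0.0134). Of the secreted Wnt antagonists 9 of 11 were tested, with 0 called in Akt-liver ECs and 1, Frzb, higher in Akt-LECs (4.50, SE 1.56, adjusted p = 0.0343).

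Among 5 R-spondin receptors and ligases, 3 were tested and 1 was higher in both cultured groups: Znrf3, which clears Frizzled from the membrane, at 1.81 (SE 0.46, adjusted p = 0.00541) in Akt-liver ECs and 2.04 (SE 0.46, adjusted p = 0.00237) in Akt-LECs. Rspo2 and Rspo4, the remaining R-spondins, gave 0 calls in either comparison.

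Of 8 Wnt/beta-catenin targets, 1 was higher and 1 lower in each cultured group. Nkd1, a feedback inhibitor of Wnt, measured 96.1, 101 and 87.5 FPKM in LSECs and 6.98, 3.42 and 8.56 FPKM in Akt-liver ECs, and was lower at -3.78 (SE 0.80, adjusted p = 0.00135). Myc, which answers to many signals besides Wnt, was higher at 3.48 (SE 0.80, adjusted p = 0.00264). Nkd1 measured 4.71, 24.8 and 0 FPKM in Akt-LECs, highest in Akt-LEC 2, the library that also held the most Wnt2 of its group.

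Around Hgf, 6 genes were tested, with 2 higher and 1 lower in Akt-liver ECs and 1 higher and 1 lower in Akt-LECs. Met, the receptor of Hgf, averaged 1.36 ± 1.13 FPKM in LSECs, 55.2 ± 9.4 FPKM in Akt-liver ECs and 62.9 ± 22.3 FPKM in Akt-LECs, with log2 fold changes of 4.66 (SE 0.66, adjusted p = 2.66e-05) and 4.79 (SE 0.66, adjusted p = 1.95e-05). Ligand and receptor thus stood opposite to each other: Hgf was lower and Met higher in the cultured endothelium. Hgfac, a protease that activates pro-Hgf, was lower at -1.94 (SE 0.70, adjusted p = 0.0396) and -2.68 (SE 0.70, adjusted p = 0.00695), and St14, another activating protease, was higher in Akt-liver ECs at 2.86 (SE 0.84, adjusted p = 0.0128), with 36.1 FPKM in the same Akt-liver EC 1 against 4.80 and 5.50 FPKM in the others. The LSEC libraries also held hepatocyte markers, at 2031 to 11760 FPKM in sum, and their part in the Hgfac level was not tested.

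**Figure D4:**
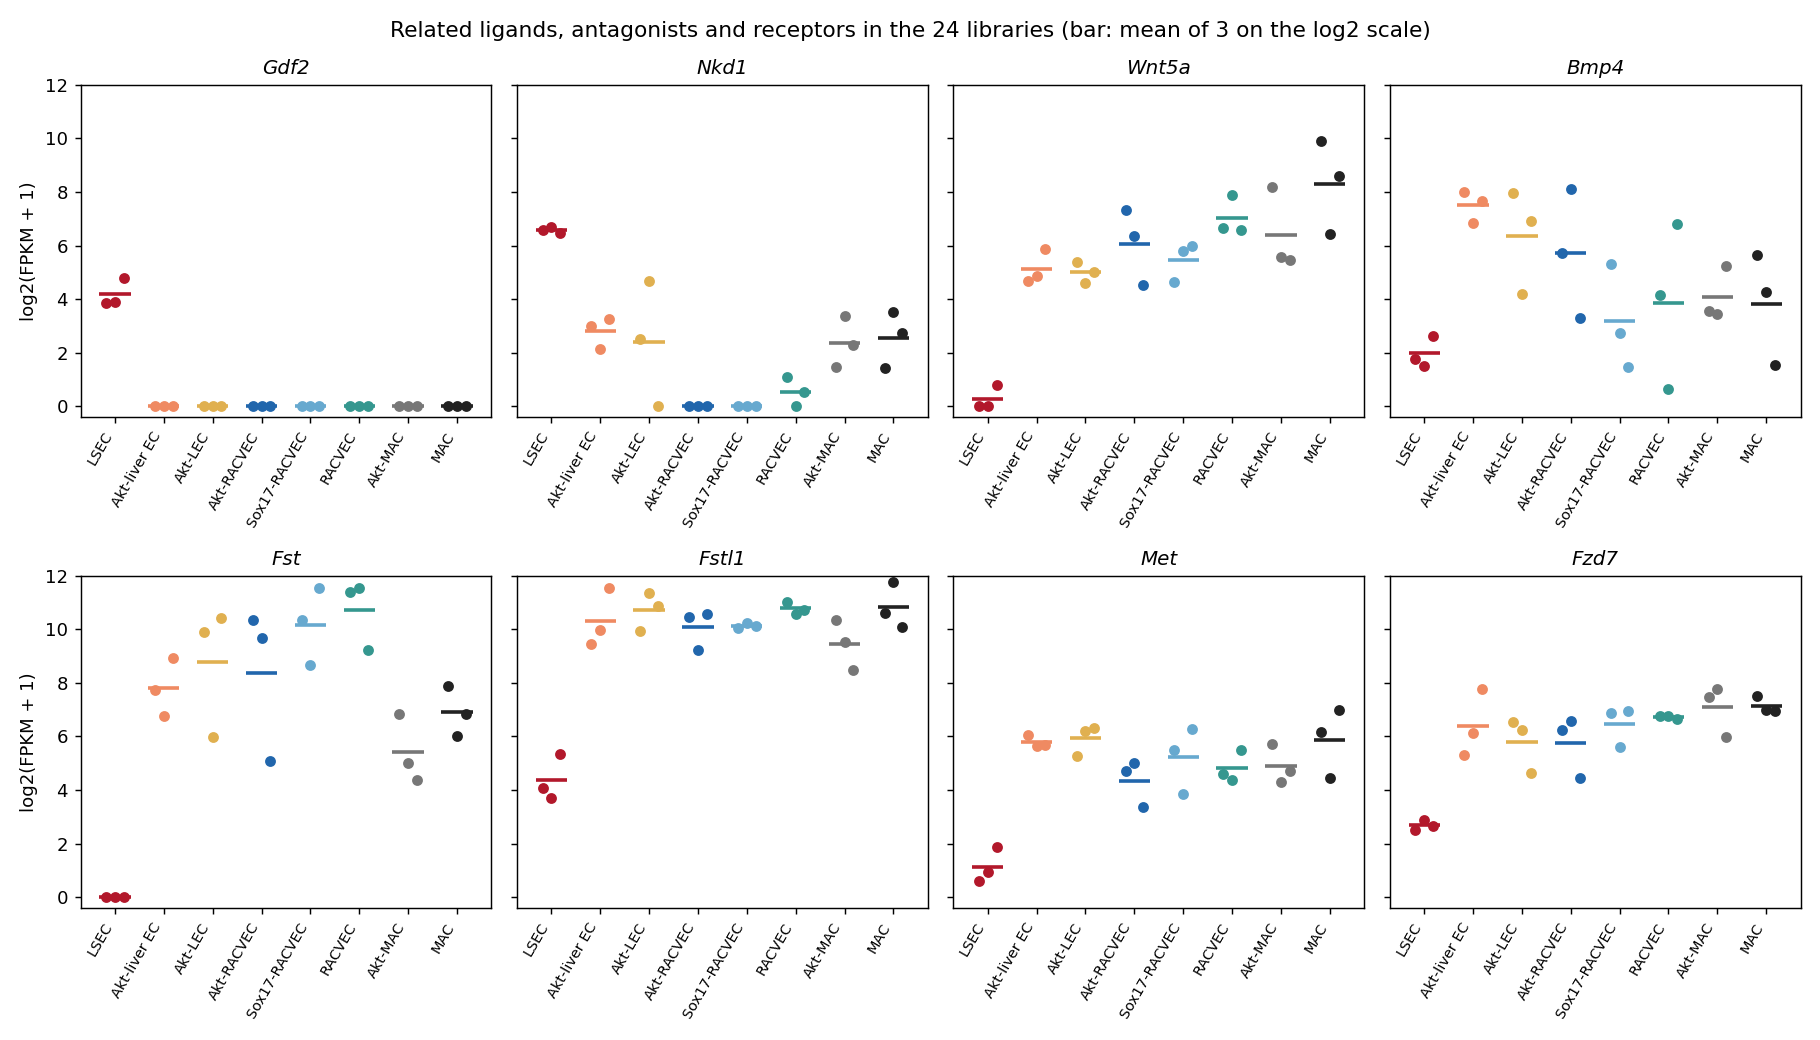
Other ligands (Gdf2, Wnt5a, Bmp4), a Wnt target (Nkd1), Bmp antagonists (Fst, Fstl1) and receptors (Met, Fzd7) on the log2(FPKM + 1) scale (y axis) in each of the 24 libraries by group (x axis), with bars for the mean of 3. Gdf2 is above 0 in LSECs alone, at 13.6 to 26.9 FPKM, and Fst is listed at 0 in LSECs alone.

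Of the 9 Bmp-family ligands other than the members, 5 were tested, with 2 higher and 1 lower in both cultured groups. Gdf2, the circulating ligand Bmp9, measured 13.6, 13.7 and 26.9 FPKM in LSECs and was listed at 0 in all other libraries (adjusted p = 5.28e-10 for Akt-liver ECs). Bmp4 measured 2.38, 1.86 and 5.25 FPKM in LSECs and 256, 115 and 200.2 FPKM in Akt-liver ECs (log2 fold change 5.53, SE 1.46, adjusted p = 0.00668). Bmp1, a protease rather than a signalling ligand despite its name, was higher at 4.98 (SE 0.61, adjusted p = 4.74e-06). Bmp2, Bmp6 and Gdf2 were therefore lower in Akt-liver EC than in LSEC libraries, while Bmp4 was higher. The LSEC libraries also held markers of other liver cells, the stellate marker Lrat among them, and their part in the Gdf2 level was not tested.

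Of the 9 Bmp antagonists, 2 were higher and 0 lower in each cultured group. Follistatin, Fst, was listed at 0 in LSECs and measured 211, 107 and 491 FPKM in Akt-liver ECs and 955, 62.0 and 1357 FPKM in Akt-LECs (adjusted p = 0.000104 and 3.05e-05). Fstl1, a follistatin-like glycoprotein, was higher in Akt-liver ECs at 5.95 (SE 0.58, adjusted p = 2.83e-07).

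Of the 9 Bmp receptors and co-receptors, 0 were higher and 2 lower in Akt-liver ECs: Bmpr2 at -1.22 (SE 0.38, adjusted p = 0.0185) and Acvr1 at -1.03 (SE 0.34, adjusted p = 0.0265). In Akt-LECs 3 were lower and 1, Acvrl1, was higher (1.76, SE 0.64, adjusted p = 0.0418). Of the 8 Bmp targets, 1 was lower in Akt-liver ECs, Id4, at -5.06 (SE 1.29, adjusted p = 0.00537), and 3 were lower in Akt-LECs, led by Id4 at -5.49 (SE 1.29, adjusted p = 0.00311), with Smad6 at -2.16 (SE 0.74, adjusted p = 0.0311) and Id3 at -1.81 (SE 0.67, adjusted p = 0.0469).

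Few of the related genes were called between the converted cells and their parents, and the same held for all genes tested. Of all genes, 2.71% were called for RACVECs against MACs and 2.81% for Akt-MACs against MACs. Adding myrAkt to RACVECs gave calls in 0.261% of all genes and adding Sox17 in 0.00668%. With shares this low, missing calls in short lists say nothing particular about the listed genes. RACVECs against MACs had Wnt16 and Fzd3 lower, at -3.11 (SE 0.68, adjusted p = 0.016) and -2.63 (SE 0.62, adjusted p = 0.026), and Eng, a Bmp co-receptor of endothelium, higher at 2.98 (SE 0.67, adjusted p = 0.0193). Akt-RACVECs and Sox17-RACVECs against RACVECs had 0 calls in these lists, and Akt-MACs against MACs had Sfrp4, a secreted Wnt antagonist, higher at 2.90 (SE 0.73, adjusted p = 0.0379).

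The genes most like each member were ranked by the Pearson correlation of log2(FPKM + 1) over the 24 libraries, among named genes with a mean of at least 10 FPKM. The libraries share groups, so that the values describe the pattern and carry no test. Wnt2 was closest to Tbxa2r (0.98), C5ar2 (0.95) and the Wnt target Nkd1 (0.94). Tbxa2r, the thromboxane receptor, measured 226, 224 and 241 FPKM in LSECs and, like Wnt2, had its highest value outside them in Akt-LEC 2, at 61.1 FPKM.

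Wnt9b was closest to Nxpe4 (0.90), Vps25 (0.88) and Gosr2 (0.87), and Vps25, an endosomal sorting subunit, measured 482 FPKM in Akt-LEC 2 and 663 FPKM in Akt-RACVEC 3, the highest of their groups. Rspo1 was closest to Wt1 (0.88), Upk3b (0.88) and Upk1b (0.86), of which Wt1 and Upk3b are known from mesothelium. Wt1 measured 295 FPKM in Akt-MAC 3 and 28.7 FPKM in MAC 3, the libraries highest in Rspo1. Rspo3 had no close match, with Kcnj15 (0.78), Rgl1 (0.78) and Lipo3 (0.77) leading.

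Hgf was closest to Ankrd44 (0.91), Sowahc (0.88) and Rab3b (0.87), and Bmp2 to Rab3b (0.87), Hgf (0.86) and Gpr155 (0.84). Hgf was the only member found among the closest genes of another, and Bmp2 was not among its own. Bmp6 was closest to Nr5a2 (0.88), Cnr2 (0.88) and the potassium channel gene Kcnk6 (0.86).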

How the data were processed

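RNA of 24 mouse cell libraries was prepared with a polyA TruSeq kit and read as paired ends of 51 bases. Per the labels and the study's methods, the authors aligned reads with TopHat to mm9 and made the deposited FPKM values with Cufflinks, with upper-quartile normalization and sequence bias correction; versions are not given in the sources used here. The deposited FPKM values of 27583 RefSeq transcripts per library were joined to current symbols (649 had none) and summed to 22282 genes. limma 3.58.1 in R 4.3.3 fitted log2(FPKM + 1) over all 8 groups, with a variance trend, for genes with a mean of at least 1 FPKM, two-sided, with Benjamini-Hochberg adjustment over 14964 genes. The fit was tested on simulated data. The members and gene lists were chosen with earlier results of these data known. All 7 members are named in every comparison, with up to 3 called genes a list and direction, and the 3 genes most correlated with each member; unnamed transcripts were left out of that ranking. Promoters came from RefSeq (5 of 7 members). The labels give no batch, and no pair of libraries held identical values. Cd68 and Hbb-b1 found no match. Alternatives were other pseudocounts (0.1 and 10), filters, scaling, a fit of the compared groups, a replicate block, the study's criterion and leaving out libraries.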

Additional observations from a re-analysis of the deposited data

How the results depend on the processing

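The number of members called stayed within 1.5 times the reported count in each of the 12 comparisons under each alternative run, and the direction was lower throughout. When a library was left out, the counts ran from 3 to 4 for Akt-liver ECs, 4 to 5 for Akt-LECs, 4 to 5 for Akt-RACVECs, 5 to 6 for Sox17-RACVECs and 2 to 4 for MACs against LSECs, and stayed at 4 for RACVECs and at 0 in the other comparisons. Of single calls, Bmp6 in Akt-liver ECs was also lost with a pseudocount of 0.1 (adjusted p = 0.0774) and without the filter on low values (0.0509), Rspo3 in Akt-RACVECs with a pseudocount of 0.1 (0.0544), and Wnt9b in MACs with a pseudocount of 10 (0.173), without the filter (0.054) and with transcripts kept apart (0.0501). Calls were gained against LSECs too: with a pseudocount of 0.1 by Wnt9b in RACVECs (0.0279), and with 10 by Rspo3 in Akt-LECs (0.043) and by Hgf (0.00656) and Bmp2 (0.0124) in MACs. In the fit of the compared groups they were gained by Rspo3 in Akt-liver ECs and RACVECs (0.0273), by Wnt9b in RACVECs and by Hgf in MACs, and lost by Hgf in Akt-LECs. The study's criterion, with unadjusted p, gained Wnt9b and Rspo3 in both Akt-liver ECs (0.032 and 0.00531) and RACVECs (0.002 and 0.0384), Rspo3 in Akt-LECs (0.0197) and Hgf in MACs (0.0176). Rescaling each library by its median shift, which ranged from -0.35 to -0.04 on the log2 scale, changed no member's call. The causes were not tested.

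In no comparison did every same-numbered pair of libraries deviate together with a correlation above 0.1, a rule that 1 pair alone can fail. In Akt-liver ECs against Akt-LECs the correlations were 0.57, 0.37 and -0.05 for replicates 1, 2 and 3. Their mean was 0.30, against -0.14 for pairs of different number. Among the other comparisons the highest mean of same-numbered pairs was 0.072, in Akt-RACVECs against RACVECs. Whether libraries of the same number share an origin was not tested. With the replicate number as a block in a fit of the compared groups, 5 members were called for Akt-liver ECs, 3 for Akt-LECs, 6 for RACVECs, 5 for Akt-RACVECs, 5 for Sox17-RACVECs and 4 for MACs against LSECs, and 0 elsewhere. The same fits without the block gave the same member counts. Over all genes, RACVECs against MACs had 405 calls in the model of 8 groups, 70 in the fit of the compared groups and 1 with the block added to it, and Akt-MACs against MACs had 420, 1 and 0. Over all the alternatives that left out no single library, the calls among all genes ran from 1 to 435 for RACVECs against MACs, 0 to 518 for Akt-RACVECs against RACVECs, 0 to 151 for Sox17-RACVECs against RACVECs, 0 to 489 for Akt-MACs against MACs, 0 to 86 for Akt-liver ECs against Akt-LECs and 1 to 35 for the difference in myrAkt effect.

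Log2 differences that were not called changed sign in some settings. With a pseudocount of 0.1 these were Wnt2 in Akt-liver ECs against Akt-LECs (0.32) and Rspo1 in MACs against LSECs (-0.51). With a pseudocount of 10 they were Bmp2 in Akt-liver ECs against Akt-LECs (0.12) and in Akt-RACVECs against RACVECs (0.10), Rspo3 in Akt-MACs against MACs (-0.21) and Hgf in the difference of myrAkt effects (0.52). With the ratio of averaged FPKM of the study's criterion they were Wnt9b in Akt-LECs (1.84) and in Sox17-RACVECs (0.61) against LSECs, Bmp2 in Akt-liver ECs against Akt-LECs (1.27) and in Akt-RACVECs against RACVECs (0.88), and Rspo3 in RACVECs (-0.80) and in Akt-MACs (-1.67) against MACs. Without Akt-liver EC 1 and Akt-LEC 1, a setting chosen after seeing the data, they were Wnt9b in Akt-LECs against LSECs (0.87) and Hgf in Akt-liver ECs against Akt-LECs (0.14).

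Leaving out single libraries also turned signs, over these ranges. In Akt-liver ECs against Akt-LECs they were -2.46 to 1.15 for Wnt2, -3.31 to 0.70 for Wnt9b, -0.67 to 0.58 for Rspo1 and -2.33 to 1.08 for Hgf. Against LSECs they were -3.14 to 0.87 for Wnt9b and -0.95 to 0.051 for Rspo1 in Akt-LECs, -1.10 to 2.38 for Wnt9b in Akt-RACVECs and -0.95 to 0.84 for Rspo1 in MACs. In Akt-RACVECs against RACVECs they were -2.14 to 0.91 for Bmp2 and -0.027 to 0.71 for Bmp6, in Sox17-RACVECs against RACVECs -0.12 to 3.57 for Wnt9b and in RACVECs against MACs -0.58 to 0.13 for Bmp6. In Akt-MACs against MACs they were -0.59 to 0.84 for Wnt2, -0.53 to 1.67 for Rspo1 and -0.62 to 3.03 for Rspo3. In the difference of myrAkt effects they were -0.25 to 1.18 for Wnt2, -1.67 to 0.53 for Rspo1, -0.77 to 0.79 for Hgf and -0.47 to 2.78 for Bmp2. Depth is unknown, so what it limits could not be stated.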

Other observations

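The vein and artery side of the liver vasculature was also sampled by lists of genes that the report does not describe. Of 8 genes known from central vein endothelium, 1 was higher and 2 were lower in Akt-liver ECs than in LSECs by the same limma model. Selp, the adhesion receptor P-selectin, averaged 739 ± 323 FPKM in Akt-liver ECs and 13.7 ± 3.8 FPKM in LSECs (SD, n = 3; log2 fold change 5.60, SE 1.03, adjusted p = 0.000411). Gja4, a gap junction protein, was lower at -6.49 (SE 1.16, adjusted p = 0.000321), as was the receptor gene Kit at -3.91 (SE 1.41, adjusted p = 0.038). Of 6 portal endothelial genes 0 were higher and 2 lower, Msr1 at -7.0 (SE 1.35, adjusted p = 0.000611) and Adgrg6 at -3.82 (SE 1.23, adjusted p = 0.0218). Msr1 is a scavenger receptor of macrophages too, whose markers were high in LSECs, and their part was not tested.

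Of 10 other secreted or signalling genes of liver endothelium, 2 were higher and 3 lower in Akt-liver ECs. Angpt2, an antagonist of the receptor Tie2, averaged 4665 ± 3082 FPKM against 102 ± 18 FPKM in LSECs (5.31, SE 1.38, adjusted p = 0.00599), and Ccn2, a matricellular protein, was higher at 3.26 (SE 1.09, adjusted p = 0.0265). The lower ones were C1qtnf1 (-5.88, SE 0.82, adjusted p = 2.54e-05), the cytokine Il33 (-4.17, SE 1.20, adjusted p = 0.0114) and the cytokine Il6 (-5.14, SE 1.7, adjusted p = 0.0256). In Akt-LECs C1qtnf1 (-5.74, SE 0.82, adjusted p = 3.32e-05) and Il33 (-3.35, SE 1.20, adjusted p = 0.0389) were lower too, against the same LSEC libraries.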
